A study of Mus musculus with 22 samples.

Results

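Cytoplasmic ribosomal protein genes encode the protein part of the ribosome that translates nuclear messages in the cytoplasm. Members were the GRCm38 RefSeq protein-coding genes whose symbol is Rpl or Rps followed by a number (with a suffix a, x, l or y allowed), together with Rplp0, Rplp1, Rplp2 and Rpsa, and without the kinases named Rps6k and predicted genes. The rule used symbols and no measured value, and it found 81 of 21883 protein-coding genes on assembled chromosomes. Of these, 50 encode large-subunit (Rpl) and 31 small-subunit (Rps) proteins, and 5 carry the suffix l of a paralog (Rpl3l, Rpl10l, Rpl32l, Rpl39l and Rps27l).

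Cultured mouse dermal fibroblasts were studied by ChIP-seq, in which DNA bound to a chosen protein is pulled down with an antibody and sequenced. The cells were either WT or Lap2alpha KO, with no other allele or agent named in the labels. Lap2alpha is a nucleoplasmic protein that binds A-type lamins away from the nuclear envelope, so the KO cells lack a partner of lamin A/C. Lamin A/C was precipitated with antibody 3A6 or E1, BRG1 and CHD4 with 1 antibody each, and Lap2alpha with antibody 1H11. BRG1 is the ATPase of SWI/SNF chromatin remodellers and CHD4 that of the NuRD complex. Chromatin was crosslinked with DSG and formaldehyde and sonicated for either 16 or 20 cycles. Every genotype, target, antibody and cycle number was represented by 1 library, with 1 list of regions. There were 18 lists, which formed 8 matched WT and KO pairs (4 for lamin, 2 for BRG1, 2 for CHD4), plus 2 Lap2alpha lists that came from WT cells. The labels do not say whether the libraries of a genotype came from separate cultures or clones. No test was run, since each group is 1 library; an SD below is the spread over pairs or lists that differ in sonication or antibody. The lists hold positions without heights and their sequencing depth is unknown, so all values below are about where listed regions lie.

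The lists differed in length, from 7283 regions (KO CHD4 at 20 cycles) to 233769 (KO lamin E1 at 20 cycles), and 7 of them held intervals that overlapped each other while 11 did not. BRG1 and CHD4 at 20 cycles and lamin 3A6 at 20 cycles paired a WT list without overlapping intervals with a KO list that had them, so list form and genotype cannot be told apart there. As a check of the labelled cell type, 11 to 12 of 12 fibroblast markers had a BRG1 region at a gene end in each BRG1 list, against 0 to 3 of 5 keratinocyte, 0 to 2 of 4 leukocyte, 0 to 1 of 3 endothelial and 1 to 2 of 4 melanocyte markers. Of all genes 36.2 to 63.0% had one. For CHD4, 10 to 12 fibroblast and 0 to 2 keratinocyte markers had one in both WT lists and in KO at 16 cycles. The KO CHD4 list at 20 cycles did not separate the cell types, with 2 of 12 fibroblast and 2 of 5 keratinocyte markers. Expression was not measured in these files.

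As background, ribosomal protein genes are housekeeping genes that are transcribed strongly in growing cells, and their messages typically begin with a run of C and T bases, the terminal oligopyrimidine tract, which couples their translation to growth signals. Their promoters are compact, usually lack a TATA box and often carry sites for ETS-type factors. Many members also carry small nucleolar RNA (snoRNA) genes in their introns. Here 29 of 81 members (35.8%) had at least 1 snoRNA gene inside the gene body, 58 such genes in all, against 1.70% of all protein-coding genes. Gene bodies of members had a median length of 3175 bp, from 592 bp (Rpl32l) to 11774 bp (Rps15a), against a median of 17170 bp over all protein-coding genes. Because short genes fill their windows differently, members were also set against 3060 genes of like length (1583 to 5369 bp, the 10th to 90th percentile of members). Members lay on 19 chromosomes, with 14 on chromosome 7.

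RefSeq start sites and strands (GRCm38.p6) matched 61 of the 81 members and 17491 protein-coding genes. The following stretches run from 80 bases before the start to 20 bases from it on, 5′ to 3′ on the gene's strand. Capitals mark a run of C and T that crosses the start site, and any CCGGAA or its complement TTCCGG, the core of an ETS-type site. Rpl15, Rpl14, Rps6 and Rpl27a are shown because they have a long run of this kind and BRG1 regions, Rps28 because it had the highest BRG1 coverage of any member in a single list although its run is short, and Rpl10l and Rpl39l because no BRG1 or CHD4 list covered them.
Rpl15, chr14:18270967-18271066, minus strand: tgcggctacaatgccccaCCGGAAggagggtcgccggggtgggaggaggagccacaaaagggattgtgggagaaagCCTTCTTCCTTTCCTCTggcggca
Rpl14, chr9:120571437-120571536, plus strand: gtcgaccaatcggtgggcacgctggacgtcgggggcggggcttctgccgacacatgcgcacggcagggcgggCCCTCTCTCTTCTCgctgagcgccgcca
Rps6, chr4:86857348-86857447, minus strand: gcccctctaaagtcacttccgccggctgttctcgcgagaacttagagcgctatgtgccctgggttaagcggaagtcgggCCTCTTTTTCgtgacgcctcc
Rpl27a, chr7:109519115-109519214, plus strand: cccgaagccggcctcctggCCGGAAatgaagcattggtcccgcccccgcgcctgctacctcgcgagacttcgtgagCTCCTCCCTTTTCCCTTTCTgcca
Rps28, chr17:33824543-33824642, minus strand: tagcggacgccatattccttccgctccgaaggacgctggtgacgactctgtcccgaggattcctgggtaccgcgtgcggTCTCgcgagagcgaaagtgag
Rpl10l, chr12:66284382-66284481, minus strand: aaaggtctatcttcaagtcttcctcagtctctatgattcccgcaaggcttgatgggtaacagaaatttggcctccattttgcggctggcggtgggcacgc
Rpl39l, chr16:10170148-10170247, plus strand: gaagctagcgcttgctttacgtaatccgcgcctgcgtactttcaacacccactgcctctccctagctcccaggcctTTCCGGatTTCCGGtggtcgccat

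The run crossing the start was 17 bases long in Rpl15, 14 in Rpl14, 10 in Rps6, 20 in Rpl27a and 4 in Rps28, and there was none in Rpl10l and Rpl39l. A run of at least 8 crossed the start in 16 of the 61 members (26.2%) and in 3.46% of all 17491 starts. Annotated starts can be a few bases off, and a run of at least 8 lay within 50 bases of the start, on the gene's strand, in 50 members (82.0%) and 35.3% of all starts. Over the window from 250 bases before to 50 after the start, and counting both strands, CCGGAA was found in 30 members (49.2%) against 19.1% of all promoters, GGGCGG, the GC box bound by SP-type factors, in 35 (57.4%) against 46.3%, TATAAA in 6 (9.84%) against 13.3%, and AAGATGGC, part of the YY1 motif, in 4 (6.56%) against 3.22%. CCGGAA occurs in Rpl39l as well, which had no BRG1 region in any list.

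BRG1 regions lay at the ends of nearly all members in 3 of the 4 BRG1 lists. A gene-end region, one with at least 1 bp within 1 kb of either end of the gene, was present at 54 of 81 members (66.7%) in WT at 16 cycles and at 77 (95.1%) in KO at 16 cycles. At 20 cycles it was present at 77 members (95.1%) in WT and 76 (93.8%) in KO. The same shares over all protein-coding genes were 36.2%, 54.4%, 63.0% and 58.9% in that order. Genes of like length had 23.6%, 46.6%, 56.9% and 51.3%, lower than all genes in each list. In all 4 lists together, 54 members had a BRG1 gene-end region throughout, 66.7% of members against 33.9% of all genes and 21.7% of genes of like length. A further 20 members lacked it in WT at 16 cycles and had it in the other 3 lists. They are 24.7% of members, and 17.2% of all genes had it in exactly 3 lists, whichever list lacked it.

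**Figure D1:**
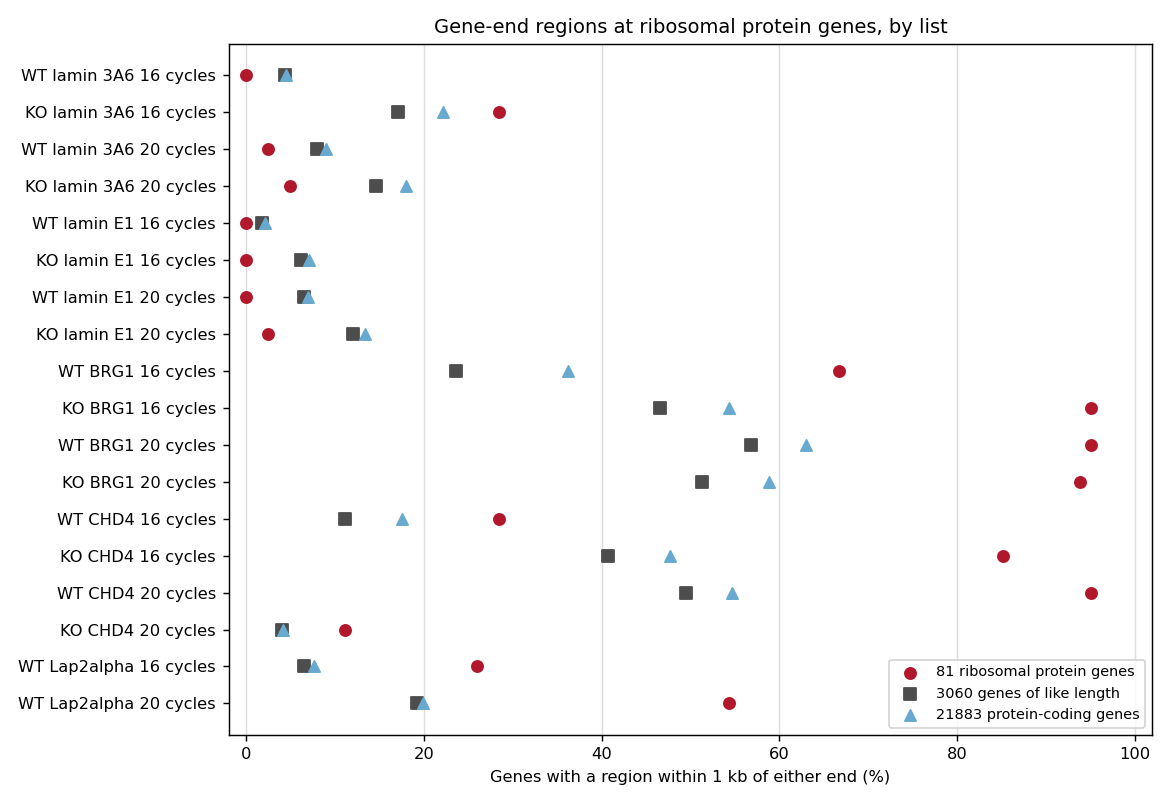
Each row is 1 list (genotype, target, antibody for lamin, sonication cycles) and the horizontal axis gives the percent of genes with a region within 1 kb of either end, for the 81 ribosomal protein genes (red circles), 3060 genes of like length (grey squares) and 21883 protein-coding genes (blue triangles). Members lie above both other groups in every BRG1, CHD4 and Lap2alpha list, and below both in each lamin list except KO 3A6 at 16 cycles, where 28.4% of members had a region.

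The second measure was the percent of a gene's window (body plus 1 kb to each side) that regions covered. Its mean over the 81 members at 16 cycles was 8.32% (WT) and 21.1% (KO), and at 20 cycles 27.6% (WT) and 21.7% (KO). All genes had 2.55%, 5.82%, 7.49% and 6.27%. The members were thus covered 3.51 ± 0.19 times (mean ± SD, 4 lists) as much as all genes, between 3.26 times (WT, 16 cycles) and 3.69 times (WT, 20 cycles), and 2.34 ± 0.14 times as much as genes of like length. From WT to KO the ratio to all genes differed by 0.37 at 16 cycles and by -0.22 at 20 cycles. The mean ratio was 2.32 when windows took in 5 kb to each side. Leaving receptor families and predicted genes out of the like-length genes gave ratios from 1.97 to 2.30.

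Coverage varied widely among members, and the 3 highest means belonged to genes shorter than the median member. Rpl37 (chr15:5116613-5119140), a large-subunit protein gene, had 19.2% (WT) and 34.7% (KO) at 16 cycles, then 43.0% (WT) and 57.2% (KO) at 20 cycles. Rps28 (chr17:33823036-33824562), a small-subunit protein gene, had 5.61%, 28.2%, 66.7% and 48.3% in the same order. Rpl41, which encodes the shortest ribosomal protein, had 20.0%, 45.7%, 48.4% and 31.0%. All 3 were lowest in WT at 16 cycles. Rps28 and Rpl41 were higher in KO at 16 cycles and lower in KO at 20 cycles, while Rpl37 was higher in KO at both lengths. Rps12 was the most even of the leading members, with 30.8%, 31.9%, 32.9% and 29.4%. Rpl13a, Rpl30 and Rpl4 followed, with means over the 4 lists of 30.5%, 30.3% and 30.0%.

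At the low end, Rpl10l (chr12:66283379-66284401), Rpl32l (chr10:20208439-20209030) and Rpl39l (chr16:10170197-10174911) had no BRG1 region in any of the 4 lists and none for CHD4. Rpl10l and Rpl39l are copies of X-linked members known for their expression in the testis. Above them came Rps9 with a mean of 5.70%, Rpl22 with 8.17% and Rps7 with 10.9%. Rps9 (chr7:3703954-3706897) had no BRG1 region in either WT list and 12.3% and 10.5% in the KO lists at 16 and 20 cycles, and it was the single member with BRG1 gene-end regions in both lists of one genotype and neither of the other. The other suffix-l members were not bare: Rps27l, a p53-responsive paralog of Rps27, had a mean of 21.5%, and Rpl3l, the striated-muscle paralog of Rpl3, had 1.92%, 8.40%, 36.0% and 8.68%. These values do not place the paralogs in 1 group, since 3 were empty and Rps27l was covered more than most of the members.

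**Figure D2:**
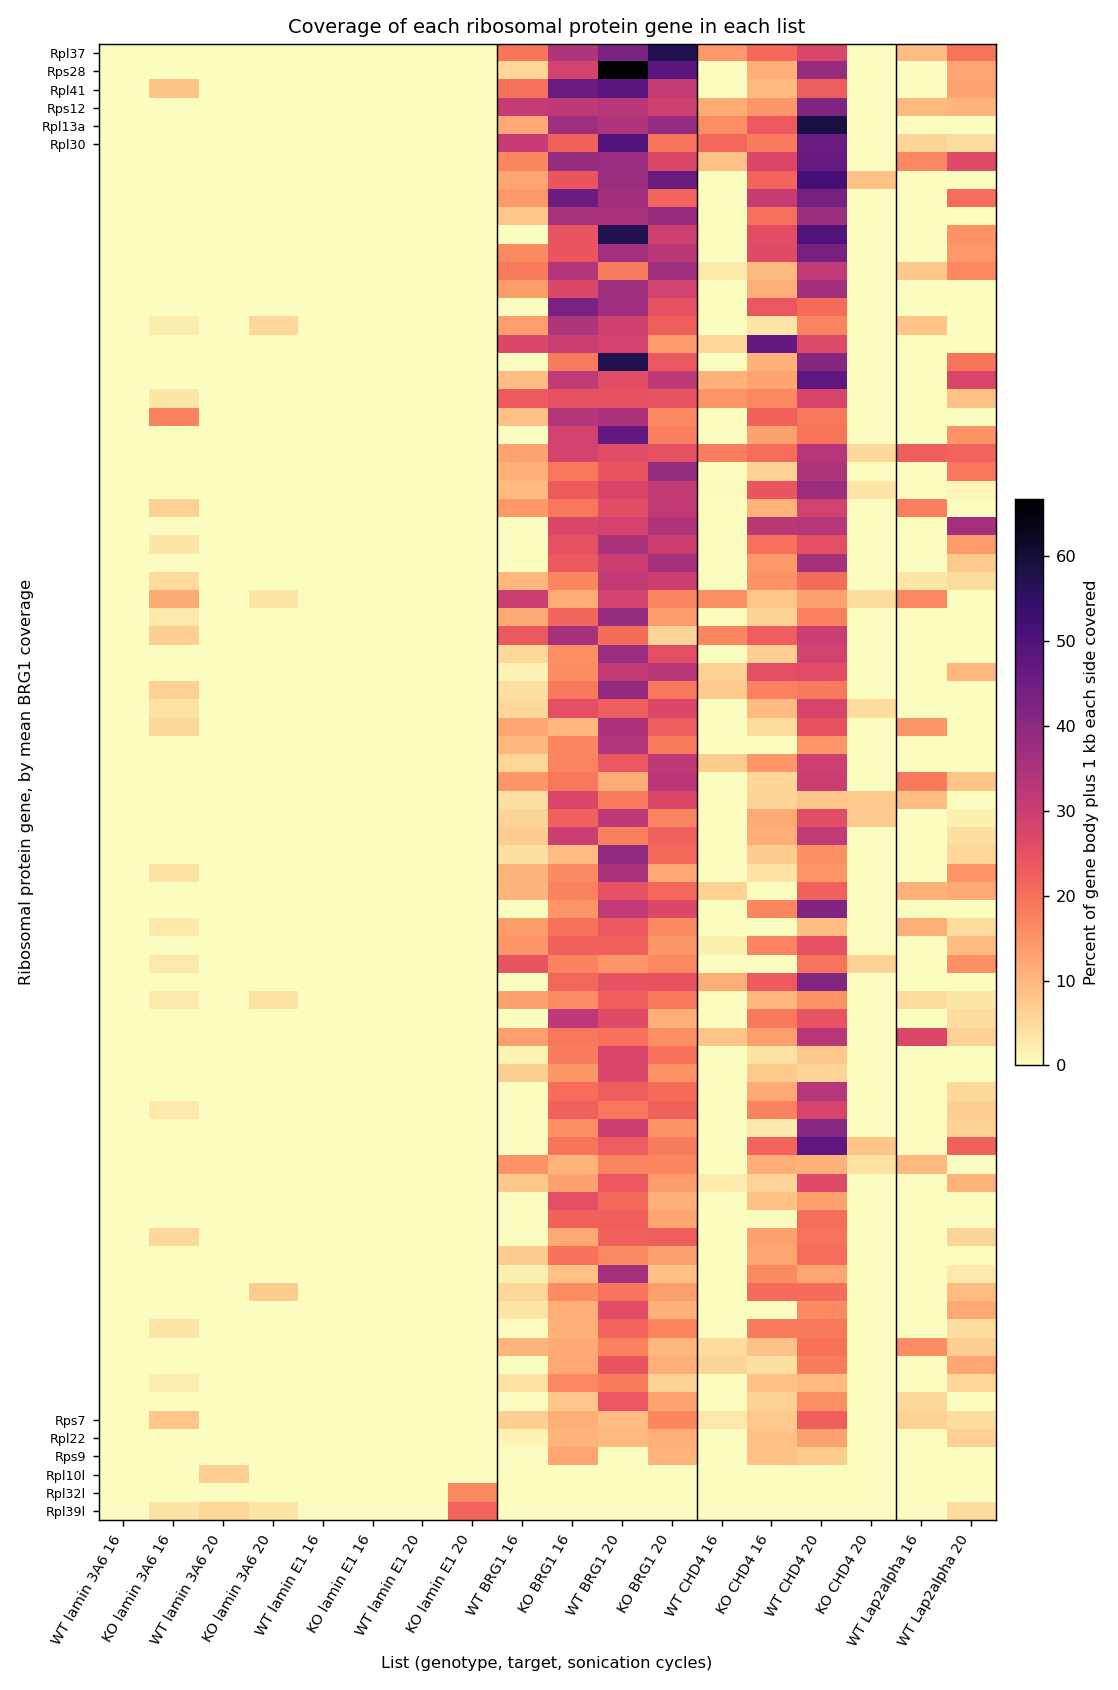
Rows are the 81 ribosomal protein genes ordered by mean BRG1 coverage, with the 6 highest and 6 lowest named, columns are the 18 lists, and colour gives the percent of the gene body plus 1 kb to each side that regions covered. The BRG1 columns other than WT at 16 cycles, where 57 of 81 cells are filled, and the CHD4 column for WT at 20 cycles are filled for at least 77 members, the CHD4 column for KO at 16 cycles for 73, the WT lamin columns are empty but for Rpl10l and Rpl39l, and the last 3 rows (Rpl10l, Rpl32l, Rpl39l) have no BRG1 or CHD4 colour.

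Members often discussed for roles beyond translation lay inside the range of the others in BRG1 coverage. Rpl11 and Rpl5, which bind the p53 regulator MDM2 when ribosome assembly is disturbed, had means over the 4 lists of 15.8% and 12.3%. Rps19, a gene mutated in Diamond-Blackfan anaemia, had 17.5%, Rps6, whose product is phosphorylated by growth signalling, 18.6%, and Rplp0, the base of the ribosomal stalk, 15.2%. Rpl3, at the peptidyl transferase centre, had 23.1%, the X-linked Rpl10 and Rps4x 24.7% and 18.5%, and Rpsa, also known as a laminin receptor, 10.99%. The medians over all 81 members ran from 6.68% (WT, 16 cycles) to 26.3% (WT, 20 cycles), with quartiles of 0 and 13.5% in the first and 21.9 and 35.1% in the second. Large- and small-subunit members had similar means in each BRG1 list, and the widest gap was 22.2% against 19.4% in KO at 16 cycles.

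Between genotypes, the members moved in opposite directions at the 2 sonication lengths. At 16 cycles 73 members were covered more in KO and 5 less, with a mean difference of 12.8 percentage points. At 20 cycles 24 were covered more in KO and 54 less, with a mean difference of -5.92 percentage points. Other genes changed direction as well. Of all 21883 protein-coding genes, 13554 were covered more in KO and 1707 less at 16 cycles, then 6108 more and 11439 less at 20 cycles. Their mean differences were 3.27 and -1.23 points, and those of genes of like length 5.91 and -2.27 points. Gene-end regions were present in KO but not WT at 23 members at 16 cycles (19.5% of all genes did so) and in WT but not KO at 0 (1.33%). At 20 cycles 1 member had one in KO alone (4.89%) and 2 in WT alone (9.08%). Over both pairs the mean difference in gene-end share was 13.6 ± 21.0 percentage points and that in coverage 3.46 ± 13.3, each smaller than its SD, so neither difference exceeded the spread between pairs. The first was 23.5 points with regions of at least 300 bp, and the second 0.62 points with regions shortened to 200 bp around their centres. The WT list at 16 cycles was the shortest of the BRG1 lists, with 72225 regions against 107321 to 205999 in the other 3, and the part of list length in these differences was not tested.

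Coverage was higher in KO in both BRG1 pairs at 23 members (22.6% of all genes) and lower in both at 4 (5.93% of all genes). The 23 members are 28.4% of the list, near the share of all genes. Among the 3060 genes of like length the counts were 493 higher and 77 lower, both smaller shares than those of members. With regions shortened to 200 bp around their centres the counts of members were 10 and 1. The 23 members include Rps9, Rpl37, Rpl15, Rpl10, Rps21 and Rpl13a. Rpl15 had 18.5% (WT) and 33.7% (KO) at 16 cycles, then 18.3% (WT) and 37.1% (KO) at 20 cycles. The 4 members lower in both pairs were Rps20, Rpl21, Rpl30 and Rpl35a. Rps20 had 30.2% (WT) and 11.7% (KO) at 16 cycles, then 28.8% and 16.7% at 20 cycles, and Rpl30 had 30.6% and 21.9%, then 49.4% and 19.4%.

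**Figure D3:**
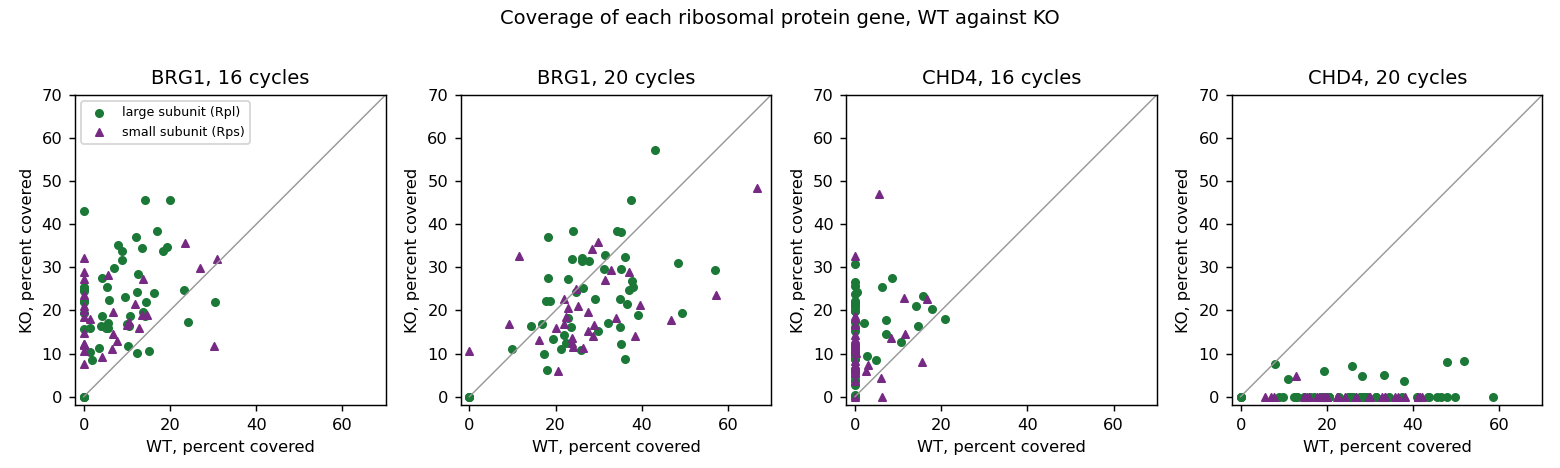
Each point is 1 ribosomal protein gene, with its percent covered in the WT list on the horizontal axis and in the matched KO list on the vertical axis (large subunit green circles, small subunit purple triangles; the line marks equal values). For BRG1 73 of 81 points lie above the line at 16 cycles and 54 below it at 20 cycles, and for CHD4 70 lie above it at 16 cycles and 78 below it at 20 cycles. Of all 21883 protein-coding genes (not drawn), 13554 were higher in KO for BRG1 at 16 cycles and 11439 lower at 20 cycles. For CHD4 these counts were 12753 and 14883.

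Around the start site BRG1 regions covered members more often than other genes. The bin covered in most members lay 25 to 275 bp into the gene, depending on the list. Over all genes it lay 75 to 225 bp into the gene. In KO at 16 cycles and WT at 20 cycles a region covered the 50 bp bin just after the start in 83.6% of the 61 members with a known start, against 35.6% and 38.6% of all genes. In KO at 20 cycles the share peaked 175 bp into the gene at 85.2%, where all genes reached 33.3%. In WT at 16 cycles it peaked 275 bp into the gene at 41.0%, where the peak over all genes was 18.6%. More than 2 kb from the start the shares of members were 2.34 to 9.55% and those of all genes 2.19 to 6.66%. The far end of the gene carried BRG1 as well: a region lay within 1 kb of it in 16.4% (WT, 16 cycles), 32.8% (KO, 16 cycles), 42.6% (WT, 20 cycles) and 50.8% (KO, 20 cycles) of these members, against 5.80%, 12.4%, 20.7% and 16.7% of all genes. Since members are short, a window at the far end can lie close to the start, and 31 of the 81 members had another protein-coding gene within their window.

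**Figure D4:**
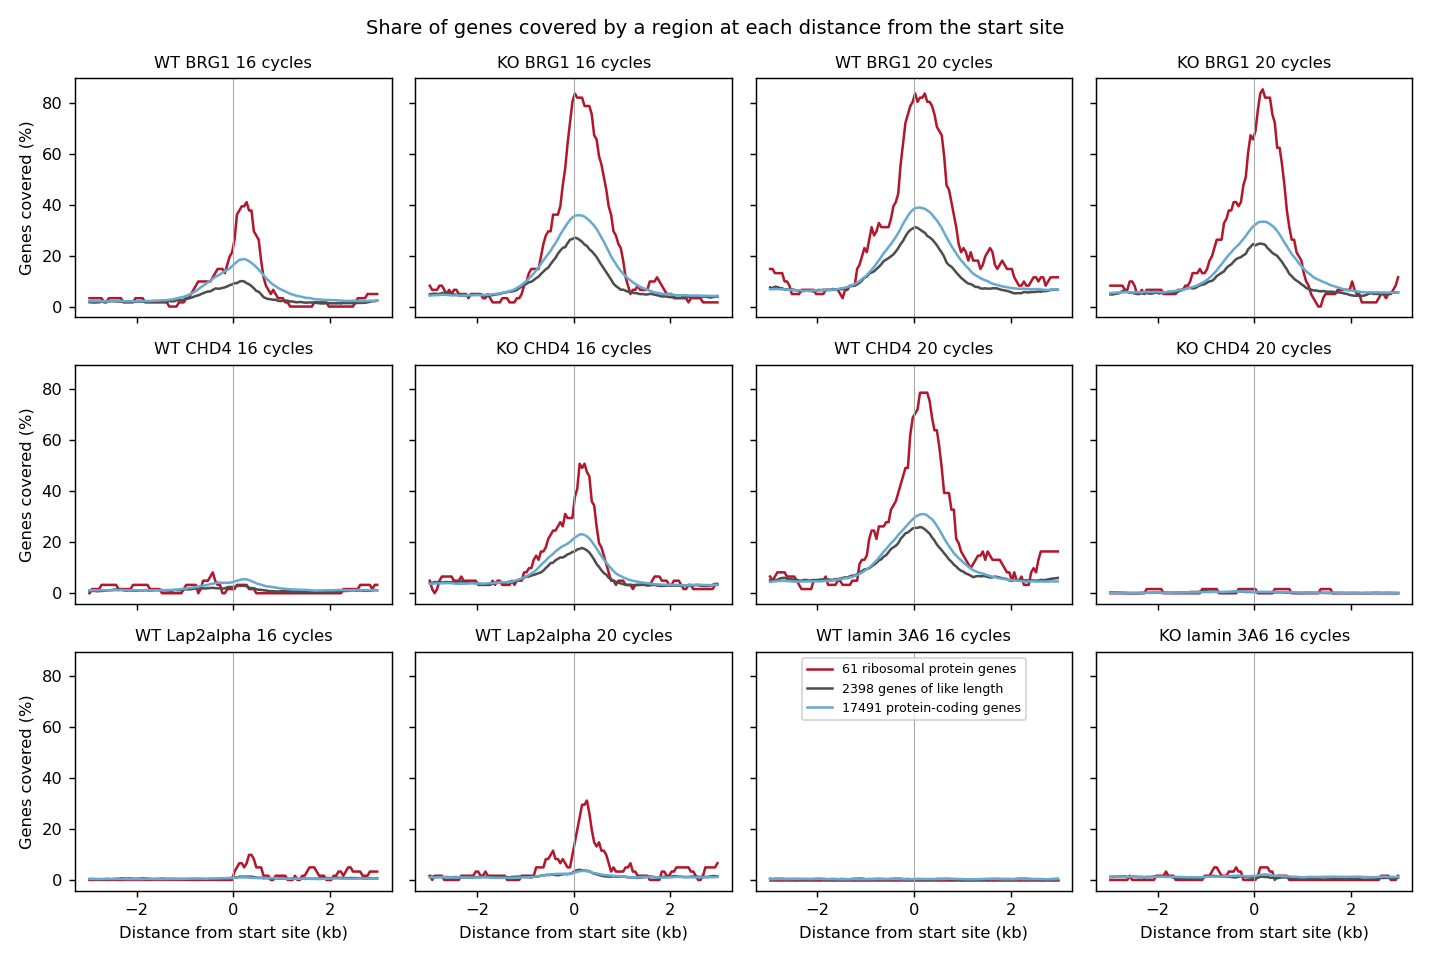
The 12 panels give the percent of genes covered by a region (vertical axis) at each distance from the start site in kb (horizontal axis, 3 kb to each side, positive inside the gene, bins of 50 bp) for 61 ribosomal protein genes (red), 2398 genes of like length (grey) and 17491 protein-coding genes (blue). The red curve rises to 83.6% at the start in KO BRG1 at 16 cycles and WT BRG1 at 20 cycles, to 78.7% in WT CHD4 at 20 cycles, and to 31.1% inside the gene in WT Lap2alpha at 20 cycles.

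CHD4 regions were found at most members in 2 of its 4 lists. Gene-end regions were present at 23 members (28.4%) in WT against 69 (85.2%) in KO at 16 cycles. At 20 cycles they were present at 77 (95.1%) in WT against 9 (11.1%) in KO. Over all genes the shares were 17.6%, 47.7%, 54.6% and 4.09%. Mean coverage of members was 2.73%, 12.9%, 25.7% and 0.74% in that order, or 2.41, 3.10, 4.61 and 4.47 times the mean over all genes. Members were thus covered more than other genes in the KO list at 20 cycles as well, although that list held 7283 regions and placed any in the windows of 10 members.

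At 16 cycles a gene-end region was found in KO alone at 46 members (31.9% of all genes) and in WT alone at 0 (1.71%). At 20 cycles none was found in KO alone (0.279%), and 68 members had one in WT alone (50.8%). The mean difference in gene-end share over the 2 pairs was -13.6 ± 99.5 percentage points, far smaller than its SD. With both lists of a pair trimmed to the same number of regions by width, it was 8.02 points, the opposite direction. Coverage was higher in KO in both pairs at no member (0.475% of all genes) and lower in both at 4 (6.24% of all genes). The 4 were Rps20, Rps25, Rpl30 and Rps4x. With the trimmed lists the counts were 2 and 2. In the untrimmed lists at 20 cycles 0 members were covered more in KO and 78 less. The first count was thus fixed by that pair, and the second equals the 4 members lower at 16 cycles. These counts therefore say nothing beyond the 16-cycle pair. Rps20 and Rpl30 were also lower in KO in both BRG1 pairs, and for CHD4 only the 16-cycle pair sets them apart from most members. The members with a CHD4 gene-end region in every list were Rpl3 and Rpl19, and the highest single values were 58.5% at Rpl13a in WT at 20 cycles and 46.9% at Rps27a, which encodes a ubiquitin fusion, in KO at 16 cycles.

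By position, CHD4 resembled BRG1 at 20 cycles in WT, with a peak of 78.7% of members 125 bp into the gene (31.0% at the peak over all genes, 175 bp into the gene). In KO at 16 cycles the peak was 50.8% at the same distance, against 23.2% for all genes. In WT at 16 cycles, a list of 49441 regions, 1.64% of members were covered at the start, below the 4.60% of all genes. The highest bin of members, at -425 bp, held 8.20%, against a peak of 5.47% over all genes, 225 bp into the gene. Averaged over the 1 kb downstream of the start, 1.15% of members were covered, against 3.78% of all genes. In WT at 20 cycles 67.2% of members had a CHD4 region within 1 kb of the far end, against 16.4% of all genes.

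Lap2alpha, mapped in WT cells alone, was found at members more often than at other genes at both sonication lengths. Gene-end regions were present at 21 members (25.9%) at 16 cycles and 44 (54.3%) at 20 cycles, against 7.61% and 19.8% of all genes and 6.44% and 19.2% of genes of like length. Mean coverage was 3.10% and 6.81%, or 5.24 ± 0.40 times that of all genes and 4.47 ± 0.27 times that of genes of like length (mean ± SD, 2 lists), and 3.38 times that of all genes when windows took in 5 kb to each side. Either list placed a region at 52 members (64.2%, against 24.7% of all genes). Both did so at 13 (16.0%, against 2.79% of all genes and 3.01% of genes of like length).

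The 13 members with Lap2alpha at both lengths were led by Rpl3 (chr15:80077781-80083406), with 22.6% of its window covered at 16 cycles and 21.7% at 20 cycles, and by Rpl4 (chr9:64173387-64178562), with 16.5% and 26.5%. Rps15a, the longest member, had 27.3% and 6.51%, and Rps23 18.6% and 8.20%. Rpl37, Rpl15, Rps4x, Rpl5, Rps12, Rpl31, Rpl30, Rpl34 and Rps19 completed the 13, with means over both lists of at most 14.4% (Rpl37). The highest value in a single list, 36.0%, belonged to Rps21 at 20 cycles, which had no region at 16 cycles. A further 39 members had a region in 1 of the 2 lists (48.1%, against 21.9% of all genes).

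Within 1 kb of the start, Lap2alpha regions of members lay more on the downstream side. Averaged over the bins of each side, at 16 cycles 0% of the 61 members were covered upstream and 4.26% downstream, and at 20 cycles 6.07% upstream and 14.8% downstream. Over all genes the values were 0.58% and 0.81%, then 1.90% and 2.44%. At 20 cycles the profile peaked 275 bp into the gene, where 31.1% of members were covered, against a peak of 3.51% over all genes. Of the 91 Lap2alpha regions in member windows at 20 cycles, 74.7% overlapped a WT BRG1 region and 76.9% a WT CHD4 region of the same sonication length by at least 1 bp, against 25.1% and 17.6% of the 39848 Lap2alpha regions in the windows of all genes. Members had more BRG1 and CHD4 coverage and shorter gene bodies than all genes, and the part of either in this overlap was not tested. Lap2alpha regions in member windows were also wider, with a median of 364 bp against 272 bp in all gene windows at 20 cycles, and 329 bp against 236 bp at 16 cycles.

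Lamin A/C regions were rare at members in WT cells. No member had a lamin gene-end region in WT 3A6 at 16 cycles, WT E1 at 16 cycles or WT E1 at 20 cycles, where 4.41%, 2.08% and 6.92% of all genes had one. In WT 3A6 at 20 cycles 2 members had one (2.47%, against 8.96% of all genes), and these were Rpl10l and Rpl39l, which are among the 3 paralogs without BRG1. The share of members with a lamin gene-end region in any of the 4 WT lists was 2.47%, against 12.4% of all genes and 11.01% of genes of like length.

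In KO cells a lamin gene-end region was listed at 23 members (28.4%) in 1 list, 3A6 at 16 cycles, where 22.1% of all genes and 17.1% of genes of like length had one. In the other KO lists 4 members (4.94%) had one with 3A6 at 20 cycles (17.9% of all genes), 0 with E1 at 16 cycles (7.01%) and 2 (2.47%) with E1 at 20 cycles (13.4%). Members thus lay above the share of all genes in 1 KO list and below it in the other 3. Counted by pair, gene-end regions in KO alone numbered 23 with 3A6 at 16 cycles (20.5% of all genes), 3 with 3A6 at 20 cycles (12.8%), 0 with E1 at 16 cycles (6.12%) and 2 with E1 at 20 cycles (8.14%). Regions in WT alone numbered 0 (2.78%), 1 (3.83%), 0 (1.19%) and 0 (1.7%) in the same order. The mean difference in gene-end share, KO minus WT, was 8.33 ± 13.4 percentage points over the 4 pairs and positive in 3 of them, which does not exceed the spread. It was 1.65 points without the 3A6 pair at 16 cycles, 4.01 points with the lists of each pair trimmed to equal length and 1.85 points with regions of at least 300 bp. No member was covered more by lamin in KO in all 4 pairs (7.88% of all genes were) and none less (0.562%). This outcome was fixed, because neither E1 list at 16 cycles placed a region in any member window. It therefore says nothing about the members. Among the 3060 genes of like length, 30 were covered more in all 4 pairs and 12 less.

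The 23 members with a lamin region in KO 3A6 at 16 cycles comprised 16 of 50 large-subunit and 7 of 31 small-subunit genes. Rpl28 (chr7:4792965-4794547) had the highest coverage, 17.4% of its window, from regions at chr7:4792124-4792451 and chr7:4793088-4793383, whose centres lay at -678 and 270 bp from the start. Rps20 followed with 11.96%, Rpl41 with 8.17%, Rps7 with 8.02%, and Rps29, Rpl37a and Rpl27a had 6.52%, 6.41% and 6.28%. The promoter of Rpl27a is printed above, and its nearer lamin region, chr7:109518656-109518853, ended upstream of the printed stretch, with its centre at -441 bp. Rps20, Rps19 and Rpl39l were the members with a lamin gene-end region in at least 2 lists of one genotype, KO in each case. Rps20 and Rps19 (2.47% of members) had one in exactly 2 KO lists, against 9.67% of all genes. Rpl39l (1.23% of members) had one in 3, against 4.04% of all genes. Members were thus below the share of all genes. Rpl39l had the most lamin of any member: 5.51% in WT 3A6 at 20 cycles, and in KO 3.81% and 3.54% with 3A6 at 16 and 20 cycles and 21.5% with E1 at 20 cycles. Rpl24 had a region in both KO 3A6 lists (2.57% and 5.28%), the second of them inside the gene and away from its ends.

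The lamin regions at members in KO 3A6 at 16 cycles were narrow, and some lay where BRG1 did. The 28 regions of KO 3A6 at 16 cycles in member windows had a median width of 215 bp (224 bp over the whole list) and none exceeded 356 bp. Of these 28, 39.3% overlapped a KO BRG1 region of the same sonication length and 53.6% a WT BRG1 region at 20 cycles, against 11.3% and 16.4% of the 77724 regions in the windows of all genes. At Rpl11, Rpl24, Rpl28, Rpl36, Rpl36a, Rpl41 and Rps26 a lamin region overlapped BRG1 in WT at 20 cycles and in KO at both lengths. Of the 19 regions at members with a known start, 7 were centred within 500 bp of it. Within 1 kb of the start, an average of 2.30% of members were covered upstream and 1.80% downstream. In the other KO lists, 2 of the 5 regions of 3A6 at 20 cycles in member windows overlapped a KO BRG1 region of that length, and E1 at 16 cycles had no region. None of the 5 regions of E1 at 20 cycles did; they were at Rpl39l and Rpl32l, which had no BRG1, and were 198 to 606 bp wide. The part of the members' high BRG1 coverage and of their short gene bodies in this overlap was not tested.

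Lamin in KO was set against Lap2alpha in WT for the same genes. Of the 52 members with a Lap2alpha gene-end region in WT at either length, 17 (32.7%) had a lamin region in KO 3A6 at 16 cycles, and of the 29 members without one, 6 (20.7%) did. Over genes of like length the shares were 21.9% and 15.6%, and over all genes 23.9% and 21.5%. The gap between members with and without Lap2alpha rests on few genes, and at the 13 members with Lap2alpha at both lengths the share was 23.1%.

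Members lay far from lamin in WT, and closer in KO, with both antibodies. The median distance from a member to the nearest 3A6 region at 16 cycles was 342.6 kb in WT against 6.67 kb in KO, and at 20 cycles 403.1 kb against 25.7 kb. With E1 it was 646.7 kb and 158.1 kb at 16 cycles, then 779.0 kb and 340.7 kb at 20 cycles. Genes of like length had 256.3 and 8.35 kb, 330.2 and 15.7 kb, 615.9 and 97.1 kb, and 562.1 and 180.9 kb in the same order. The distance was shorter in KO in each of the 4 pairs for members and for genes of like length, and members were farther from lamin than genes of like length in each list but KO 3A6 at 16 cycles. KO lists held more lamin regions than WT lists in every pair (188132 against 86033 with 3A6 at 16 cycles), and the part of list length in these distances was not tested.

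The other genes of the translation machinery give a frame for these values. Mitochondrial ribosomal protein genes, 78 genes for the separate ribosome of mitochondria, had BRG1 gene-end regions at 46 (WT) and 75 (KO) genes at 16 cycles, then at 75 (WT) and 72 (KO) at 20 cycles, much as the cytoplasmic members, but their mean BRG1 coverage was 4.53%, 11.4%, 14.2% and 11.9%, so cytoplasmic members were covered 1.82 to 1.94 times as much. The contrast was wider for Lap2alpha, at 4 of 78 mitochondrial genes at 16 cycles and 17 at 20 cycles, where cytoplasmic members were covered 9.32 and 4.85 times as much. In KO 3A6 at 16 cycles 13 of the 78 mitochondrial genes (16.7%) had a lamin gene-end region, against 28.4% of members. Among 37 translation factor genes BRG1 was at the ends of 28 (WT, 16 cycles) and of all 37 in the other 3 lists. Lap2alpha was at 8 of these 37 at 16 cycles and 19 at 20 cycles. These shares are close to those of members (25.9% and 54.3%) and above those of all genes (7.61% and 19.8%). A high Lap2alpha gene-end share was thus not particular to ribosomal protein genes. Among 40 ribosome assembly factor genes BRG1 was at 27, 39, 40 and 40 and Lap2alpha at 4 and 13. Among 12 genes of RNA polymerase I and its factors BRG1 was at 7, 11, 12 and 11 and Lap2alpha at 1 and 2. A lamin gene-end region in KO 3A6 at 16 cycles was listed at 9 of the 37 translation factor genes (24.3%). It was listed at 12 of the 40 assembly factor genes (30.0%), a share above that of members, and at 0 of the 12 RNA polymerase I genes.

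Ribosomal protein genes have left many processed pseudogenes, intron-free copies inserted elsewhere without their promoter. Of 317 annotated copies, BRG1 gene-end regions were present at 6.62% (WT) and 10.7% (KO) at 16 cycles and at 21.5% (WT) and 15.46% (KO) at 20 cycles, below the share of all protein-coding genes in each list. Lap2alpha was at 6.31% and 9.15% of them at 16 and 20 cycles. Their lamin gene-end share was 5.36% in WT and 14.2% in KO with 3A6 at 16 cycles, above the members in WT and below them in KO. How the authors treated reads that fit several places is not given in the sources used here, and such reads can move between a member's exons and its copies. Related genes that the symbol rule leaves out include Rpl22l1, a paralog of Rpl22, and Fau, which encodes a ribosomal protein fused to a ubiquitin-like one. BRG1 covered 35.4% of the window of Rpl22l1 in WT at 16 cycles and 41.5% at 20 cycles, against 15.0% and 19.7% in KO. Fau had none in WT at 16 cycles and 14.4% in WT at 20 cycles.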

How the data were processed

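Lists from ChIP-seq of WT and Lap2alpha KO mouse dermal fibroblasts were grouped by sample title. The authors deposited each list as intervals of 3 columns (chromosome, start, end) with no score or fold. Per the submitters' processing notes the build is GRCm38 and the tools include MACS2 2.1.4 and HOMER 4.11.1; what each tool did, and with which threshold, is not stated there. More reads or a looser threshold would lengthen a list and raise every share drawn from it. The 4 input libraries were not analysed here.

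Overlapping intervals were merged, and intervals of width 0 or on the mitochondrial genome left out. Genes, start sites and promoters came from RefSeq tables for GRCm38.p6; the gene table gives no strand, so gene ends include 3′ ends. Overlap meant at least 1 bp. Python 3.11.15, pandas 2.3.3 and numpy 2.4.6 were used, and the interval functions were tested on simulated intervals over 705 gene windows, where 100% of genes were recovered. Members, lists and alternatives were chosen with earlier results of these data known.

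Named genes were members with lamin gene ends in at least 2 lists of a genotype or lamin coverage that differed one way in all pairs, members with no BRG1 gene end, the 6 highest and 6 lowest in mean BRG1 coverage, members with Lap2alpha at both lengths, members with BRG1 or CHD4 in both lists of 1 genotype alone, and a fixed set of well-known members and paralogs. Other members were named after their values were seen. Rpl32l joined the paralogs after the annotation was read; Rps4l is annotated as a pseudogene and was left out.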

Additional observations from a re-analysis of the deposited data

Results flagged for a closer look

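The BRG1 difference between genotypes had the opposite direction at the 2 sonication lengths. Mean coverage of the 81 ribosomal protein genes was 12.8 percentage points higher in KO at 16 cycles and the difference was -5.92 points at 20 cycles, and the share with a gene-end region differed by 28.4 points at 16 cycles and by -1.23 points at 20 cycles. CHD4 did the same: mean coverage differed by 10.2 points at 16 cycles and by -24.9 points at 20 cycles, and the gene-end share by 56.8 and -84.0 points. All protein-coding genes changed direction too. Their mean coverage differed by 3.27 and -1.23 points for BRG1 and by 3.04 and -5.41 points for CHD4. Their gene-end share differed by 18.1 and -4.19 points for BRG1 and by 30.2 and -50.6 points for CHD4. These differences between sonication lengths were not tested, since each rests on 1 library per genotype, antibody and length.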

How the results depend on the processing

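Each of 10 main results was recomputed with regions shortened to 200 bp around their centres, equal numbers of the widest regions in both lists of a pair, regions of at least 300 bp, other windows (body only or 5 kb for coverage, 500 bp or 2 kb for gene ends), autosomes alone, 7 related genes added, single sonication lengths and antibodies, the start side alone, and, added after seeing the data, without the 5 paralogs. Of 110 alternative values 97 kept their sign and stayed within 1 SD of the main value, where the SD is over pairs or lists. Values with a reversed sign were counted apart, although they too lay within 1 SD. For the genotype differences that SD is wide, so lying within it says little about their stability. Signs reversed in 6: BRG1 coverage was -5.92 points and BRG1 gene ends -1.23 points (KO minus WT) at 20 cycles alone, CHD4 coverage was 10.2 points and gene ends 56.8 points at 16 cycles alone, and these CHD4 differences were 0.74 and 8.02 points once both lists of a pair were trimmed to the same number of regions by width. The ratio of member coverage to all genes moved by more than its SD in 7: for BRG1 it was 3.31 with 200 bp centres, 3.93 over bodies alone and 2.32 with 5 kb to each side, and for Lap2alpha 4.61, 5.91 and 3.38 in the same order and 6.72 with regions of at least 300 bp. The members covered more in KO in both BRG1 pairs numbered 10 with 200 bp centres, against 23, and those covered less 1, against 4. The lamin gene-end difference, 8.33 points in the report, was 4.01 points with lists trimmed to equal length and 1.85 points with regions of at least 300 bp. No paired analysis by replicate was possible because each group is 1 library. Depth is unknown for all lists, and the absence of a region is not evidence that the protein is absent.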
